A study of Mus musculus with 3 samples.

Results

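Of the 6067 autosomal FOG2 peaks in embryonic mouse ventricle, 1127 (18.6%, Wilson 95% interval 17.6 to 19.6) had their summit within 10 kb of another summit. These clustered peaks were selected on summit position alone: summits were sorted along each chromosome, neighbours 10 kb or less apart were linked into a chain, and every peak in a chain of 2 or more was kept. They formed 515 chains, and the other 4940 autosomal peaks were lone. A further 99 peaks on the X chromosome brought the list to 6166 and were outside the rule.

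FOG2 was pulled down from heart ventricles of mouse embryos at E12.5 (embryonic day), about 20 of which were pooled for each biological replicate. Per the labels' protocol, the embryos were Fog2flbio/flbio;Rosa26BirA/BirA: they carried a tagged FOG2 allele and the bacterial biotin ligase BirA at the Rosa26 locus, so that FOG2 was biotinylated and could be recovered on streptavidin beads. In the characteristics fields the genotype is WT and the antibody FOG2, which does not match that protocol, and the deposited peak names carry the word FLAG. There were 2 pulldown libraries and 1 input library, all from that tissue, and the authors called the peaks on the pooled pulldown. No value below therefore has a spread between replicates. The control was input chromatin, and a streptavidin pulldown from tissue with BirA but no tagged FOG2 was not analysed here. Whole ventricles hold cardiomyocytes, endocardium, epicardium and blood, and the cell type behind a peak cannot be told apart.

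FOG2 is encoded by Zfpm2. It is a cofactor with zinc fingers and does not read a DNA sequence of its own with high affinity. It reaches chromatin through the amino-terminal zinc finger of GATA factors, chiefly GATA4 in the heart, and it can recruit the NuRD repressor complex. Embryos without it die with defects of the ventricular wall, the valves and the coronary vessels. Cardiac genes are commonly served by several enhancers within a few kilobases, and GATA factors bind the letters GATA in an A-rich context, of which AGATAA and its reverse complement TTATCT are the plain form.

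The chain of highest fold lay in Larp7, on chromosome 3, around a cluster of microRNA genes. The LARP7 protein is a chaperone of the 7SK RNA. The 6 summits of this chain spanned 10503 bp inside the gene, and the mir-302 and mir-367 hairpins lay between the fourth and the fifth summit. These microRNAs are best known from embryonic stem cells and early embryos. The 3p mature forms at hand are printed with the seed (bases 2 to 8) in capitals, because the seed decides which transcripts a microRNA pairs with. The sequence of miR-302a-3p was not available here, and the 5p forms are left out. Sequences and positions are from RefSeq on GRCm38.p6 (the mm10 assembly), 5′ to 3′, on the plus strand.
miR-302b-3p: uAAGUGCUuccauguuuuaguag
miR-302d-3p: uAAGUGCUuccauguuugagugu
miR-302c-3p: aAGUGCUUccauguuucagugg
miR-367-3p: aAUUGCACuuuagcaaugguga
The first pair shared the seed AAGUGCU. The seed of miR-302c-3p, AGUGCUU, was the same run shifted by a base, and that of miR-367-3p, AUUGCAC, was unrelated.

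Along the Larp7 chain the peaks were 36.3-, 75.3-, 60.4-, 75.4-, 141- and 119-fold over control, in chromosome order. The fold is the authors' ratio of pulldown to control at the summit, with a single fragment added to each side. The first peak was the weakest and the last pair the strongest. They rested on 69, 166, 133, 129, 226 and 191 pulldown fragments, recovered from the authors' fold and p-value. The exact 95% Poisson interval of the first, 53.7 to 87.3, lay below those of the other 5, and that of the fifth, 197 to 257, above those of the first 4. The strongest peak, at chr3:127545716-127546525, contained the whole Mir367 hairpin (chr3:127545733-127545807), whose nearer end was 404 bp from the summit. The Mir302b, Mir302c, Mir302a and Mir302d hairpins were 910, 781, 647 and 522 bp from that summit and overlapped no peak. No other of the 9 microRNA hairpins within 5 kb of a clustered summit was touched by a peak interval. The control level, the number of fragments the peak caller expected at the summit, ran from 0.608 to 1.22 along the chain. It was 0.608 in the last pair, near the floor of 0.588 shared by the whole list. The median of all clustered peaks was 0.931.

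Peaks on promoters were few among clustered and lone ones alike. Of 1077 clustered peaks on the chromosomes that the promoter table covers, 17 (1.58%) overlapped a RefSeq promoter window, taken as 250 bp before to 50 bp after a start site. The share was 2.14% of 4730 lone peaks there. The windows met by clustered peaks belonged to 17 genes, and AGATAA or TTATCT stood in those of 9 (52.9%, Wilson interval 31.0 to 73.8). It stood in 15 of 104 genes met by lone peaks (14.4%, 8.94 to 22.4) and in 12.7% of 27025 genes with a window. The difference of 38.5 percentage points (95% interval 15.1 to 60.1) fell to 14.7 (-1.64 to 33.9) when summits up to 20 kb apart were chained and to 24.2 (0.439 to 51.3) with a 5 kb limit. Another GATA form, GATAAG, which can overlap AGATAA, was in 5 of the 17 genes (29.4%, 13.3 to 53.1), 16 of the 104 (15.4%, 9.70 to 23.5) and 8.58% of all, so the larger gap belongs to the first form. The motifs were looked at after earlier results were known, and the shares are a description. A TEAD motif, GGAATG, was in 5 of the 17 genes against 16.6% of all, an NKX motif, CAAGTG, in 3 against 15.4%, and the T-box letters AGGTGTGA in 0 against 1.48%, with their core GGTGTGA in 1 against 4.60%. All motifs were read on both strands.

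The genes met by clustered peaks with AGATAA or TTATCT in a window were Mylk3, Tecrl, Ankrd1, Mlip, Sgms1, Epha3, BB218582, Gm33474 and Hectd2os. The calcium channel gene Cacna1c and H2-K1 were among those without it. The windows of 4 muscle genes with such a motif are printed as examples, picked after their values were seen. Each holds the 250 bases before the start site on GRCm38.p6, on the minus strand, with AGATAA or TTATCT in capitals.
Mylk3, chr8:85381042-85381291: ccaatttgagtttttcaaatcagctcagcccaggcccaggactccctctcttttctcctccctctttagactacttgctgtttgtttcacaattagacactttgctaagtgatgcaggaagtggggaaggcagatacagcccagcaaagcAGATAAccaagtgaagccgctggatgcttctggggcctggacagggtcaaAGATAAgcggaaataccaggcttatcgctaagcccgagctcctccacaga
Tecrl, chr5:83355196-83355445: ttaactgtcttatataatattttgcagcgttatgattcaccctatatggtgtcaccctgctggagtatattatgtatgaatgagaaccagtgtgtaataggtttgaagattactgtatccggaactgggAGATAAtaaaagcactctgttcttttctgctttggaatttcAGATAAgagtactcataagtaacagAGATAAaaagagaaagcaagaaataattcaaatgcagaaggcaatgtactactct
Ankrd1, chr19:36119845-36120094: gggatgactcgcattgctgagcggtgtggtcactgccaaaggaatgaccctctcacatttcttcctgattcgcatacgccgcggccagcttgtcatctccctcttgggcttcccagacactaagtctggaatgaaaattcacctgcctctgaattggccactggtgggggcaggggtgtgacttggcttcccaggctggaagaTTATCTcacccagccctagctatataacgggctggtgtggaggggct
Mlip, chr9:77347857-77348106: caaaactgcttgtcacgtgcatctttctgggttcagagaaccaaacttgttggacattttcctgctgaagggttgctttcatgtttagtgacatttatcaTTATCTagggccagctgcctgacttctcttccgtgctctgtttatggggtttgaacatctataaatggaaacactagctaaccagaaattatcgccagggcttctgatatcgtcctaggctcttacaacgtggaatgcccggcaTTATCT

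At Mylk3, which encodes the cardiac myosin light chain kinase, the promoter peak was 25.1-fold with 70 fragments (54.6 to 88.4). Its summit lay 42 bp before the start site, and the motifs began 100 and 50 bp before it. The second summit of that chain, 1709 bp away inside the gene, was 5.66-fold. Tecrl, a gene in which human mutations cause a stress-induced arrhythmia, had a 9.78-fold peak with 27 fragments (17.8 to 39.3). Its summit was 6 bp before the start site, and 3 motifs began 121, 80 and 55 bp before it. Ankrd1, which encodes a stretch-responsive titin-binding protein, had a 26.5-fold peak with 74 fragments (58.1 to 92.9). That peak had its summit 397 bp before the start site, outside the printed bases, and the motif began 47 bp before the start. Mlip, the gene of a lamin-interacting muscle protein, had a 7.79-fold peak with 21 fragments (13.0 to 32.1) and a summit 46 bp past the start site used here.

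**Figure D1:**
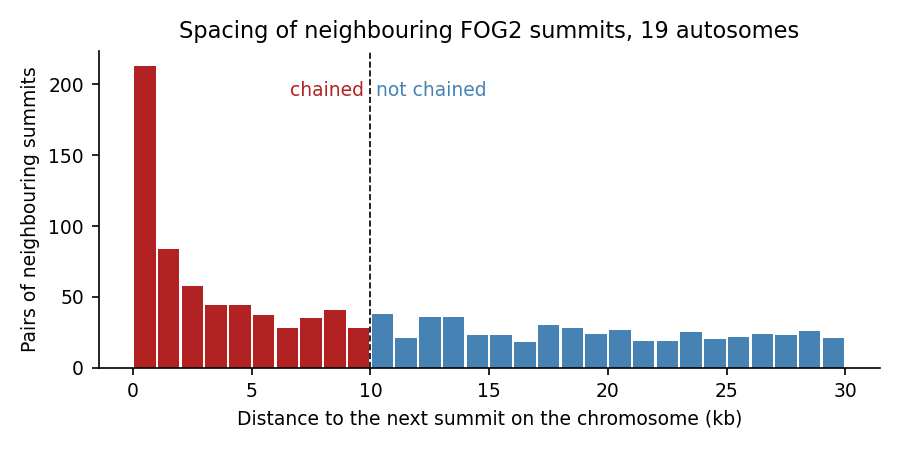
Number of pairs of neighbouring autosomal summits (y axis) by the distance between them in 1 kb bins (x axis, kb); red bars are the links of chains and blue bars are neighbours too far apart to be chained. The bin under 1 kb is the tallest, and the bins before and after the 10 kb limit hold about 28 and 38 pairs.

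Most chains were pairs. There were 441 chains of 2 summits, 59 of 3, 10 of 4, 3 of 5, 1 of 6 and 1 of 7. The 612 links between neighbours had a median length of 2123 bp, with quartiles of 660 and 5502 bp and a range of 135 to 9987 bp. Links under 1 kb numbered 213 (34.8%). No intervals of neighbouring peaks overlapped, but 62 were less than 100 bp apart and 163 less than 300 bp, while the labels' protocol gives chromatin fragments of 300 to 800 bp. Whether such close pairs were separate bound sites or parts of a single one was not tested. A chain spanned 2819 bp at the median and 19135 bp at most.

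The 10 kb limit fell in a flat stretch of the spacing, with 28 neighbours over 9 and up to 10 kb apart and 38 over 10 and up to 11 kb. Just inside it were the pairs nearest to Tbx18 (9987 bp apart, 10.8- and 15.8-fold), and to Efna5 (9861 bp, 5.67- and 9.02-fold) and Prkch (9861 bp, 10.6- and 4.25-fold). Just outside were those nearest to Syn3 (10006 bp, 11.0- and 8.21-fold), Ror1 (10020 bp, 6.02- and 5.66-fold) and S1pr1 (10027 bp, 5.31- and 12.0-fold).

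Clustered peaks were somewhat stronger than lone ones. Peaks and their folds come from the same pulldown against input, so these values are given as a description, and their 95% intervals cover the number of peaks only. The median fold was 6.84 (6.69 to 7.02) for clustered and 6.37 (6.32 to 6.39) for lone peaks, a difference of 0.468 (0.321 to 0.654). The median summit rested on 13 fragments against 11, and the median interval was 270 bp wide against 248 bp. At the upper end, 23.1% of clustered and 15.4% of lone peaks reached 10-fold, and 4.53% against 2.55% reached 20-fold. At the lower end, 30.6% of clustered and 41.2% of lone summits rested on 10 or fewer fragments. The control level also differed, at a median of 0.931 for clustered and 0.776 for lone summits, and its part in the result was not tested. The clustered median fold was the higher on 15 of 19 chromosomes.

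The share of peaks in chains was level over most of the range of fold and higher at the top. It lay between 15.3% and 20.1% in the first 8 deciles of fold. It was 23.4% in the ninth decile, from 9.37- to 12.2-fold, and 26.4% in the highest decile. By chromosome it ran from 10.7% on chromosome 6 to 26.7% on chromosome 17.

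**Figure D2:**
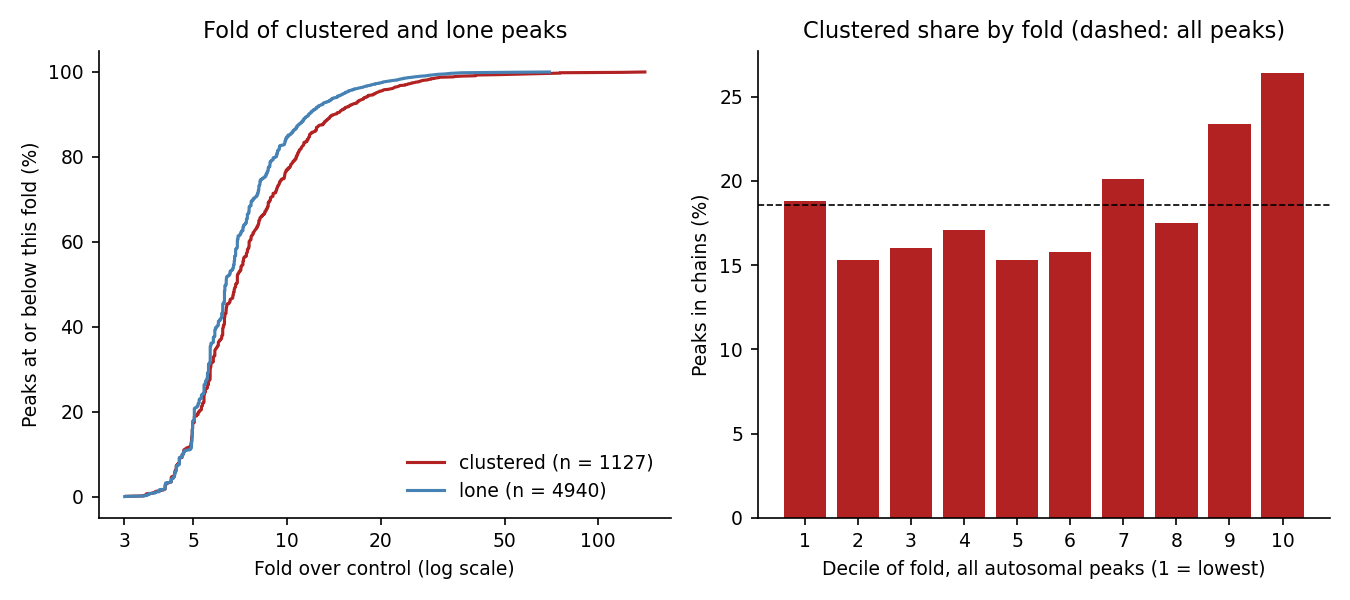
Left, percentage of peaks at or below each fold over control (log axis) for clustered (red) and lone (blue) peaks; right, percentage of autosomal peaks that are in chains in each decile of fold, with the share over all peaks (18.6%) dashed. The curves run close together at the lower quartile and are apart at the median and the upper quartile. The highest bars are the top pair of deciles at 23.4% and 26.4%.

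Members of a chain differed in fold, mostly by less than a factor of 2. The strongest member had a median fold of 8.80 (8.36 to 9.26) and the weakest 5.66 (5.47 to 5.70). These are picked as extremes and so bracket the median of all clustered peaks by construction. The ratio of strongest to weakest had a median of 1.45, quartiles of 1.18 and 2.02 and a highest value of 12.8. It was 2 or more in 131 chains (25.4%) and 4 or more in 26. Intervals on fold were made from the Poisson bounds on fragments with the control held at its level. Those of the strongest and the weakest member did not overlap in 77 chains (15.0%) and overlapped in 438, which does not show that the members were equal. The weakest member still reached 10-fold in 37 chains, and no member reached 6-fold in 66.

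No clear preference of the strongest summit for a place in the chain was seen, and none was tested for. Among the 74 chains of 3 or more, it was an inner summit in 27 (36.5%), and inner summits made up 39.6% of all summits of those chains. Median fold was 7.56 (6.37 to 8.36) for inner and 7.31 (6.70 to 7.91) for end summits. By chain size the median fold was 6.77 in chains of 2, 7.02 in chains of 3, 7.89 in chains of 4 and 8.76 (6.93 to 15.3) in the 5 longest, whose 28 peaks include the 6 of Larp7. By distance to the nearest summit, the lowest median fold, 5.63 (4.97 to 6.22) over 58 peaks, was at 300 bp or less, and the highest, 7.67 (7.11 to 8.57) over 152 peaks, between 1 and 2 kb.

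The members of the longest and strongest chains differed in profile. Jup, which encodes plakoglobin of desmosomes and intercalated discs, held the chain of most summits, 7 within 10712 bp inside the gene. Their folds in chromosome order were 6.93, 8.70, 10.1, 10.1, 8.70, 6.93 and 4.96, on 10 to 15 fragments each. The fold intervals of all 7 overlapped, so no member stood apart. In 4 of the 7 the control level was at its floor of 0.588.

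Cdc42bpa, a kinase gene acting on the actin cytoskeleton, had 5 summits within 2664 bp, 54.2 to 56.9 kb outside the gene. They were 16.8-, 5.67-, 8.82-, 15.1- and 17.0-fold, so that both ends were high and the middle low. Robo1, the gene of a receptor for Slit ligands that also acts in heart development, had 5 inside the gene at 7.46-, 15.3-, 6.69-, 10.3- and 5.70-fold. Fam204a was nearest to 5 weak summits, 4.41- to 7.40-fold on 6 to 15 fragments, 60.2 to 68.1 kb away.

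The chain of longest span, at Cep85l and Pln, had a high peak at its start and lower ones after it. Pln encodes phospholamban, the inhibitor of the calcium pump SERCA2, and lies inside the span of Cep85l. The 4 summits at 54.3-, 11.2-, 7.58- and 4.25-fold rested on 110, 26, 17 and 11 fragments. The fold interval of the first (44.7 to 65.3) lay above those of the rest, and the weakest, 8496 bp past the third, was the single member inside Pln. Which of the overlapping genes a summit serves is not settled by position.

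Chains picked for the fold of their strongest member had, by that choice, wide gaps to the weakest. Near Csnk1g3, a casein kinase gene 342 kb away, the pair was 9.90- and 68.8-fold, 611 bp apart. Near Dyrk2, 86.3 to 90.9 kb away, it was 4.66- and 48.1-fold, in Bcas1 40.4- and 5.31-fold and in Slc15a1 11.2- and 34.6-fold. At Cwc27 the values were 40.4-, 6.37- and 4.08-fold. In all 5 of these chains the fold intervals of the strongest and the weakest member did not overlap. At Stard7 the folds rose along the chain, with 14.9-, 18.3- and 30.9-fold on 23, 28 and 48 fragments, and fold intervals of 22.9 to 40.7 for the strongest and 9.69 to 22.1 for the weakest.

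The chains of 4 also varied. Grb10, the gene of an adaptor that restrains insulin signalling, had 10.2-, 20.5-, 23.0- and 4.25-fold inside the gene. Phactr2 had 13.4-, 21.9-, 4.78- and 7.50-fold. Near Irx2, a homeobox gene 135 to 137 kb away, the folds were 25.2, 10.7, 5.67 and 6.30 within 1534 bp. At Ankrd1 the promoter peak of 26.5-fold was accompanied by a 5.67-fold peak at the far end of the gene and by 4.92- and 8.10-fold peaks 9.42 and 10.1 kb upstream.

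**Figure D3:**
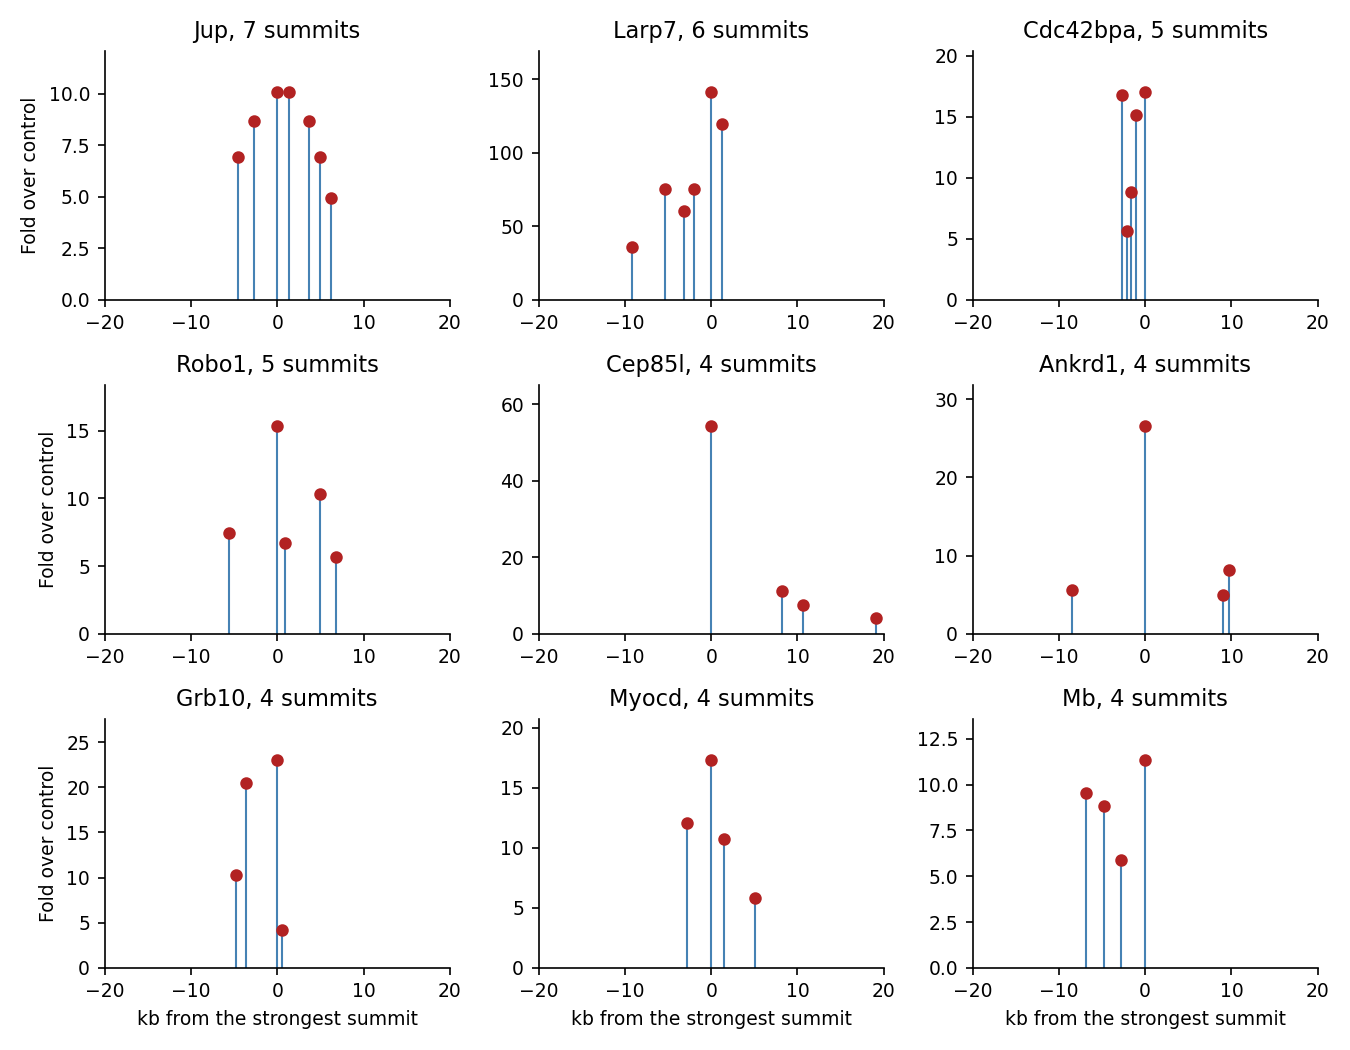
Fold over control (y axis, linear, its own scale in each panel) of every summit in 9 chains against the distance in kb from the strongest summit of that chain (x axis). The Larp7 chain lies between 36.3- and 141-fold, the Jup chain is level, and the Cep85l and Ankrd1 chains have a single high member.

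The share of peaks in gene bodies was a little lower for clustered than for lone ones, with an interval on the difference that just held 0. A summit was inside a protein-coding gene in 43.3% of clustered peaks (Wilson interval 40.4 to 46.2) and 46.5% of lone peaks (45.1 to 47.9), a difference of -3.16 percentage points with an interval of -6.34 to 0.0678. The clustered share was the lower on 12 of 19 chromosomes, and the difference turned to 0.566 when genes of any biotype were counted. It was -4.85 (-8.44 to -1.20) with a 5 kb chain limit and -3.46 (-6.65 to -0.230) without the Larp7 chain, and both intervals leave out 0. Within 1 kb of a gene end were 3.19% and 3.14%. Over 100 kb from any protein-coding gene were 26.1% of clustered and 23.3% of lone peaks. The median distance to a RefSeq start site was 33.2 kb (29.3 to 37.7) for clustered and 39.4 kb (37.5 to 41.4) for lone peaks, on the chromosomes with such sites in the table. Exons and introns are not told apart in the gene table used here. A chain mostly stayed on the same side of gene ends: 210 had every summit inside a gene, 289 had none inside, and 16 had both.

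Chains of closely spaced summits differed in place from widely spaced ones. Chains in which every link was under 1 kb are called tight here (167 chains, 344 peaks), and the others spread (348 chains, 783 peaks). This split was made after the values were seen. In gene bodies were 32.8% of peaks in tight chains (28.1 to 38.0) and 47.9% in spread ones (44.4 to 51.4), beside 46.5% of lone peaks. The difference between spread and tight was 15.0 percentage points (8.85 to 20.9). This interval counts peaks as if they were independent, while peaks of a chain share their place, so it is likely too narrow. Peaks over 100 kb from any gene made up 34.6% of the tight and 22.3% of the spread. The median fold was 6.84 (6.30 to 7.11) in tight and 6.93 (6.69 to 7.14) in spread chains, so fold did not separate them.

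The control level moved with the same split. It was under 0.62, at or next to its floor, in 39.0% of peaks in tight chains, 16.6% in spread chains and 30.2% of lone peaks. All members were that low in 41 tight chains (24.6%) and 17 spread chains (4.89%). A low control level means few input reads near the summit. Its part in the split was not tested, nor was that of mappability, for which no file gives a value.

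**Figure D4:**
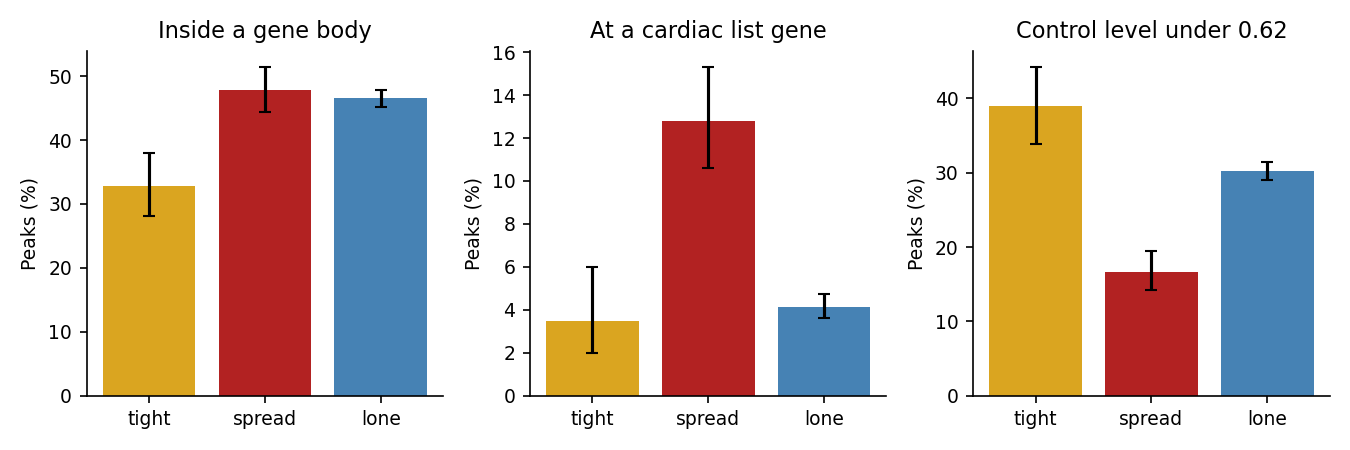
Percentage of peaks in tight chains (every link under 1 kb, n = 344), spread chains (n = 783) and lone peaks (n = 4940) that lie inside a gene body, are assigned to a gene of the 6 cardiac lists, or have a control level under 0.62; bars start at 0 and error bars are Wilson 95% intervals over peaks. Spread chains are highest for cardiac genes (12.8%) and lowest for low control (16.6%).

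Each summit was assigned to the nearest protein-coding gene body within 100 kb. Of 20665 autosomal protein-coding genes, 362 had a clustered summit (1.75%), 108 a summit in a tight chain (0.523%), 257 in a spread chain (1.24%) and 2681 a lone summit (13.0%). In 181 of the 362 all summits were clustered. A single gene served 365 chains, 138 chains had no gene in reach, and 22 genes had 2 or more chains. Ank3, the gene of ankyrin-G, which anchors sodium channels in the membrane, alone had 3. They held 5.86- and 7.11-fold, 4.51- and 6.93-fold, and 18.0- and 6.21-fold peaks.

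Genes of the cardiac lists, which include transcription factor and signalling genes, often had a clustered summit. Over 6 cardiac lists, 43 of 168 genes did (25.6%, beside 1.75% of all genes), and 99 (58.9%, beside 13.0%) had a lone summit. Over 6 lists of other cell types and housekeeping genes it was 5 of 102 (4.90%), and 27 (26.5%) had a lone summit. These include lists of epicardium, valve mesenchyme and fibroblast and of endocardium and endothelium, which are also heart cells. The first had 2 of 18 genes with a clustered and 13 with a lone summit, the second 1 of 18 and 5. The 6 pooled lists are therefore not a set from outside the heart. The lists were chosen with earlier results of these data known, so these shares are a description. Long genes and genes with wide flanks collect more summits, and the lists were not matched on length. Expression was not measured in these samples. Of the 43 cardiac genes with a clustered summit, 38 had one in a spread chain (22.6% of 168, beside 1.24% of all genes). A tight chain met 6 (3.57%, beside 0.523%). Over all genes, 257 of the 362 with a clustered summit had one in a spread chain and 108 in a tight chain. In peaks, 12.8% of the spread (10.6 to 15.3), 3.49% of the tight (12 of 344 peaks) and 4.13% of the lone (3.61 to 4.72) were at a cardiac gene. The difference between spread and tight was 9.28 percentage points (5.97 to 12.2), over peaks that share chains, so the interval is likely too narrow. Counted by chains, 42 spread (12.1%) and 6 tight chains (3.59%) were at a cardiac gene.

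The sarcomere and Z-disc list had 12 of 36 genes with a clustered summit: Actn2, Ankrd1, Csrp3, Ldb3, Myh7, Myl2, Myom2, Palld, Sorbs2, Tnni1, Tnni3 and Ttn. Palld, which encodes an actin-bundling protein of Z-discs, had a pair at 4.37- and 6.70-fold and a chain of 3 at 5.80-, 14.7- and 3.89-fold. The fold interval of the middle member (10.0 to 21.0) lay above that of the last (2.05 to 6.86). Sorbs2, a Z-disc adaptor gene, had pairs at 7.79- and 6.72-fold inside and at 4.51- and 4.42-fold 12.2 to 17.1 kb outside. Myl2, the ventricular regulatory myosin light chain gene, had 6.70-, 5.66- and 9.20-fold inside the gene, whose fold intervals overlapped.

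In the calcium handling list, 5 of 21 genes had one, namely Cacna1c, Cacnb2, Cacna2d1, Pln and Ryr2. Ryr2, whose product releases stored calcium at each beat, had a pair inside at 6.72- and 5.69-fold. It also had a chain of 3 lying 25.4 to 27.1 kb outside, at 17.6-, 11.0- and 3.46-fold on 44, 30 and 13 fragments. The fold interval of the first (12.9 to 23.5) lay above that of the last, which ended at 5.75. Cacna2d1, a subunit of voltage-gated calcium channels, had 5.15-, 40.6- and 15.1-fold just 1.79 to 3.72 kb outside the gene. For the pore subunit Cacna1c the values were 7.79- and 5.94-fold inside the gene. For the beta subunit Cacnb2 they were 5.86- and 13.4-fold, 37.3 to 38.5 kb outside.

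Among cardiac transcription factors, 14 of 40 genes had one: Gata6, Zfpm1, Zfpm2, Tbx3, Tbx5, Tbx18, Nkx2-5, Hand2, Meis1, Myocd, Tead1, Irx4, Prox1 and Foxp1. Myocd, the coactivator of SRF in heart and smooth muscle, had a chain of 4 inside the gene at 12.0-, 17.3-, 10.8- and 5.81-fold. The first 3 rested on 33 to 36 fragments and the last on 11. Nkx2-5, a core cardiac homeobox gene, had a pair 15.6 and 23.9 kb outside at 7.41- and 22.1-fold, and the fold interval of the second (16.2 to 29.5) lay above that of the first. Meis1 had 5.97-, 8.55- and 6.25-fold and Prox1 5.35-, 5.95- and 5.86-fold inside the gene, with overlapping fold intervals in each.

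The genes of FOG2 and its partners were of moderate fold. Zfpm2 had 2 of its 7 summits clustered, 1332 bp apart at 4.08- and 8.12-fold inside the gene. Gata6 had 4 of 5, as pairs of 6.54- and 7.67-fold at an end of the gene and of 6.39- and 4.06-fold 48.8 to 57.3 kb away. Tbx5 had 2 of 3 at 5.66- and 8.64-fold inside the gene. Gata4, the main GATA partner in the heart, had 3 summits and none was clustered. The fold intervals overlapped within each of these pairs.

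In the signalling list, 6 of 29 genes had one: Bmp10, Tgfbr3, Erbb4, Ror1, Robo1 and Vegfa. Erbb4, the neuregulin receptor needed for trabeculation, had a tight pair inside at 16.4- and 12.7-fold on 31 and 35 fragments. Ror1, a Wnt5a receptor gene, had 5.66-, 5.12-, 7.68- and 5.29-fold inside. Tgfbr3, the TGF-beta coreceptor gene, had 5.80- and 7.77-fold 54.4 to 57.9 kb outside. The 5.80-fold summit lay 89 to 95 bp past start sites of Gm33474.

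In the energy list it was 4 of 20 genes. Mb, the myoglobin gene, had a chain of 4 within 6868 bp inside the gene at 9.56-, 8.80-, 5.90- and 11.3-fold. Cox6a2, a striated muscle subunit of cytochrome c oxidase, had a tight pair at 5.41- and 10.9-fold. Of the coactivators of mitochondrial genes, Ppargc1a had 5.12- and 4.82-fold inside the gene. Ppargc1b had 9.20- and 6.08-fold 41.0 to 41.7 kb outside. The list of ion channels and gap junctions had 2 of 22. Kcnq1, a repolarising potassium channel, had pairs at 6.40- and 4.96-fold and at 4.96- and 4.25-fold. Kcnj5, an atrial and nodal potassium channel, had 7.08- and 7.22-fold.

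Among the other lists, that of epicardium, valve mesenchyme and fibroblast had 2 of 18 genes (11.1%, beside 1.75% of all) with a clustered and 13 with a lone summit. The 2 were Tbx18, at 10.8- and 15.8-fold 84.3 to 94.3 kb outside, and Twist1, at 4.06- and 4.94-fold. Tbx18 also stands in the transcription factor list. The endothelial list had 1 of 18 (Ets1, 7.66- and 6.25-fold). The neuron list had 1 of 20 (Dlx2, 8.70- and 5.04-fold, 53.6 to 54.7 kb outside). Blood had 0 of 15 and hepatocytes 0 of 16. Housekeeping genes had 1 of 16, Eef1a1, by a single 8.49-fold summit 24.9 kb away.

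**Figure D5:**
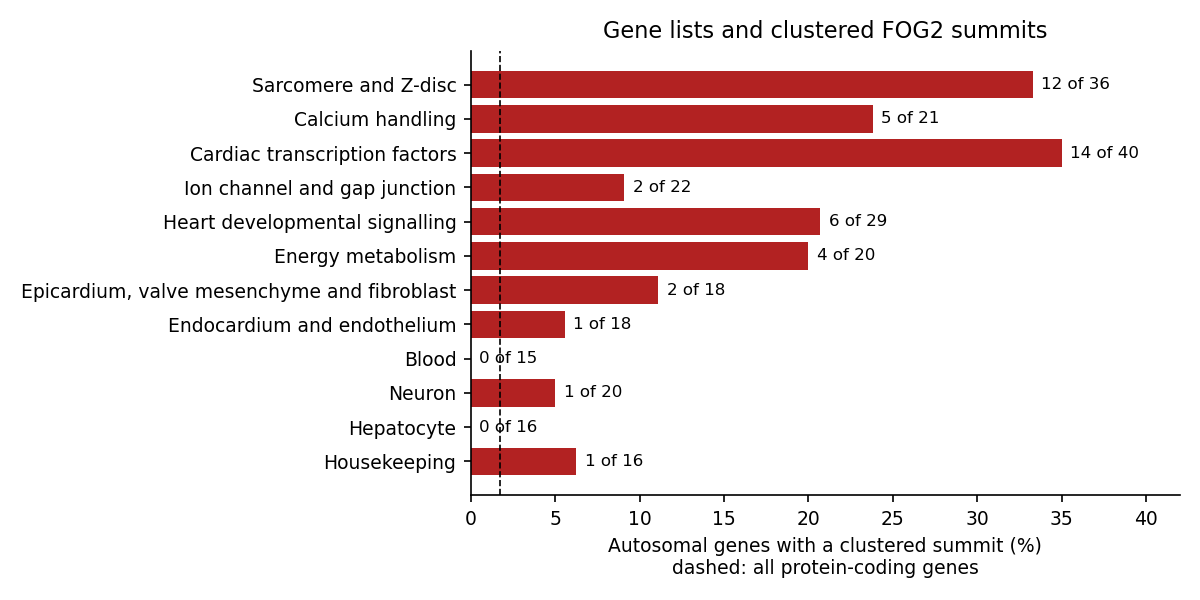
Percentage of the autosomal genes of each of 12 lists that had a clustered summit assigned to them (x axis), with the numbers beside each bar and the share of all protein-coding genes (1.75%) dashed. Sarcomere (12 of 36) and transcription factor genes (14 of 40) have the longest bars, and blood and hepatocyte genes have none.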

How the data were processed

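One peak list was analysed, called by the authors on the pooled FOG2 pulldown against input. It was filtered against blacklisted regions, per the name of the deposited list. Bowtie2 2.3.2, SAMtools 1.5, Picard, MACS2 2.1.1 and the build mm10 come from the submitters' processing notes. No settings of these are given in the sources used here. Fold was deposited as a linear ratio, pulldown over control at a summit. The recovery below took it as the ratio after a single fragment is added to each side. The plain ratio of fragments to control level is therefore higher than the fold. The deposited −log10 p and −log10 q are the caller's values there. The deposited display score was not used. Whole pulldown fragments were recovered from fold and −log10 p by a Poisson tail, within 0.001 in all 1127 clustered peaks (in 8 of them another whole number matched too), and checked on simulated data; library totals are not in the list. Intervals on fragments cover counting error only. Summits were placed on RefSeq genes and promoters (GRCm38.p6).

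No test was run: medians have order-statistic, shares have Wilson and differences have combined 95% intervals, over peaks that share chains. Named genes were the 10 chains with most summits, the 10 of highest fold, up to 4 genes per list with most clustered summits, and 8 genes whatever their values; others named were picked after their values were seen. One chain under this rule is not reported here. Members and lists were chosen with earlier results of these data known. Other chain distances, peak thresholds, gene sets and ways of counting chains were tried. Motifs and GC content at summits were not analysed here. Python 3.11.15 and SciPy 1.17.1 were used.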

Additional observations from a re-analysis of the deposited data

How the results depend on the processing

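Of 54 alternatives, 43 lay inside the 95% interval of the reported value or, for the number of genes, within 1.5 times of it, and 11 lay outside. None turned a difference whose interval left out 0. The clustered share of 18.6% became 13.6% at a chain distance of 5 kb and 26.2% at 20 kb. It was 15.1% with peaks of −log10 q of at least 5, 16.1% with peaks of at least 5-fold, and 12.7% after summits within 1 kb were merged into the stronger. Counting each chain once by its strongest member, which picks the extreme, raised the difference in median fold from 0.468 to 2.43 and in median width from 22.0 to 76.0 bp. The difference in gene bodies, -3.16 percentage points, became 2.30 after merging within 1 kb and 0.566 with genes of any biotype, and both intervals held 0. It was -4.85 at 5 kb, -3.46 without the Larp7 chain and -1.56 at 20 kb, and the intervals of the first pair left out 0. The difference at gene ends, 0.0567 points, was below 0 in 6 of 10 alternatives, so no direction can be read from it. List genes with a clustered summit numbered 47, and 30 at −log10 q of at least 5. The AGATAA difference of 38.5 points became 14.7 at 20 kb and 24.2 at 5 kb. The differences between tight and spread chains stayed within their intervals with limits of 500 or 2000 bp in place of 1 kb, which were chosen after seeing the data, as were those for promoters. The planned AGATAA shares in summit windows were not run, since no genome sequence was used. No paired analysis was possible because the replicates were pooled in a single list. Clustered summits had a median of 13 fragments, and the fold intervals of strongest and weakest overlapped in 438 of 515 chains. The part of depth in these overlaps was not tested.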

Other observations

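By the same rule, 20 of the 99 peaks on the X chromosome (20.2%) fell into 9 chains. The strongest pair, 53.5- and 38.4-fold, lay about 959 kb from the nearest protein-coding gene, Diaph2. Hprt, a purine salvage gene, held a pair at 14.3- and 17.0-fold whose intervals were 1179 and 4495 bp wide. The single chain of more than 2 summits lay at Phex and Gm52451, with 4.51-, 12.6-, 23.9- and 7.46-fold.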
